A study of Arabidopsis thaliana with 7 samples.

Results

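Genes that package DNA, modify histones or direct small RNAs were examined in 6 FAIRE-seq gene lists of the *Arabidopsis thaliana* *msh1* memory line. In FAIRE-seq, chromatin is fixed with formaldehyde and sheared, and the DNA that stays unbound by protein is sequenced, which enriches open chromatin. Members were the listed genes whose deposited description, before its first semicolon, held 1 of 11 words or phrases (histone, chromatin, nucleosome, SET domain, SNF2, chromomethylase, DNA methyltransferase, argonaute, dicer, RNA-dependent RNA polymerase or bromodomain). *RDR2*, *CLSY1* and *SUVH4* were included by identifier, and the words found all 3 of them as well. The rule gave 20 genes of the 2600 in at least 1 list. Every member is in a list by this rule, so being listed at all is no finding about them.

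Chromatin was crosslinked in whole rosettes of seedlings in the Columbia-0 background, grown for 14 days on MS medium at 24 °C with 12 h of light. The 3 memory plants (replicates 1, 2 and 3) belong to the *msh1* memory line, and the 2 wild type plants (replicates 2 and 3) are Columbia-0. As background, *MSH1* encodes an organelle-targeted protein that maintains organelle genomes, and memory lines descend from plants in which it was silenced by an RNAi transgene that was later lost by segregation. For each genotype, 3 decrossed plants were also pooled as a technical check, and these pools were not analysed here.

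Each list sets 1 memory plant against 1 wild type plant and gives the genes associated with its peaks, up to 2 kb upstream or downstream. The controls carry the codes C2 and C3, and which wild type replicate is which is not stated in the labels. A gene is present or absent in a list, with no level, peak position or read depth behind it, so no interval or test can be given for a gene. All 3 lists against a control share that control library, and both lists of a memory plant share its library. Defining markers of rosette tissue could not be checked, because the lists hold no levels.

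In plant chromatin, DNA is wound around histones H2A, H2B, H3 and H4, and variants such as H2A.Z and H2A.W mark different kinds of chromatin. Enzymes add or remove methyl and acetyl groups on the histones, and ATP-driven remodellers move or exchange the nucleosomes. In RNA-directed DNA methylation, RNA polymerase IV transcripts are copied by RDR2, cut by dicers and loaded on argonautes, which guide new DNA methylation to matching sequence. A related set of argonautes and RNA-dependent RNA polymerases silences RNA after transcription.

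The first question was how many of the members each contrast held. Memory plant 1 against C2 held 13 of the 20 members, in a list that took 5.86% of the 27444 nuclear protein-coding genes. The lists of plants 2 and 3 against C2 held 10 and 9 members, where 4.72% and 4.42% of all genes were listed. Against C3, plant 1 had 10 members (4.76% of all genes listed), plant 2 had 7 (3.84%) and plant 3 had 7 (3.55%). Set against list length, the members were an even share. They made up between 6.65 and 8.08 of every 1000 listed genes in the 6 lists.

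**Figure D1:**
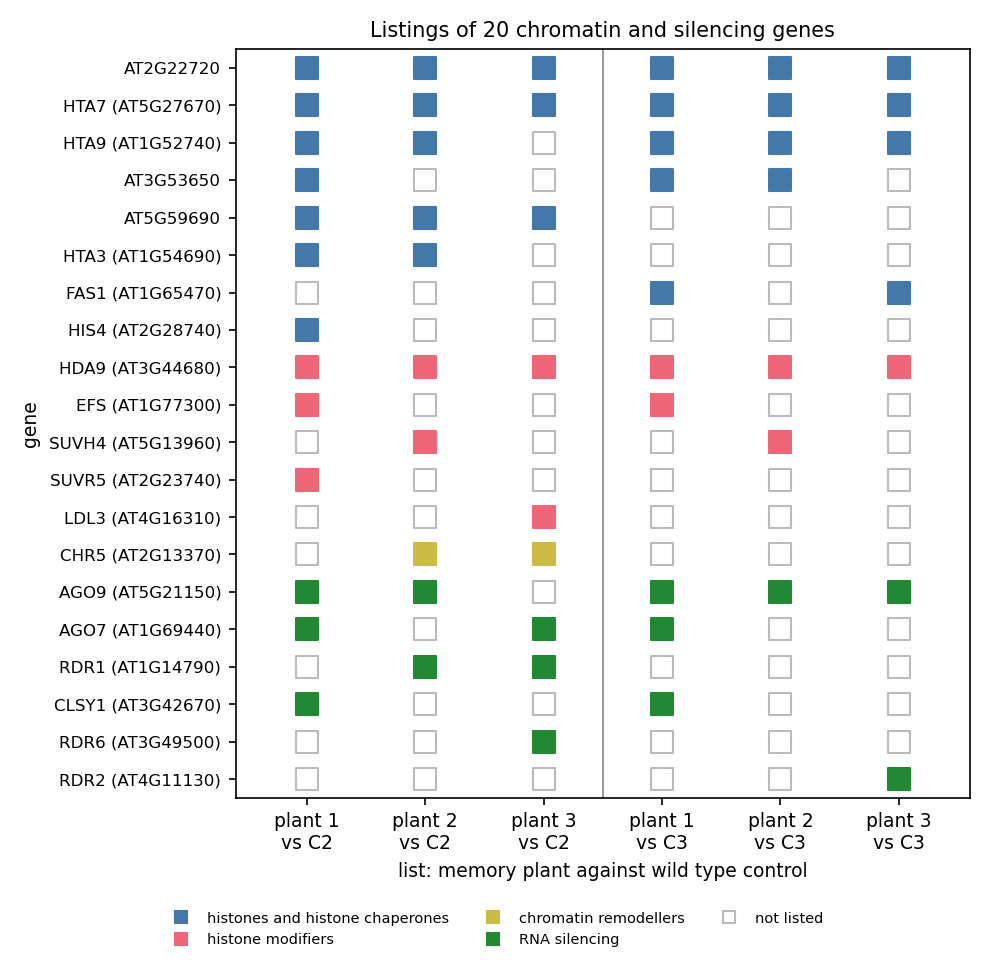
Presence of the 20 genes (rows, grouped by role in colour) in the 6 lists (columns, memory plant against control). A filled square is a listing and an open square is none. *HDA9*, *HTA7* and AT2G22720 fill all 6 columns, and *HTA9* and *AGO9* leave the same single column open, plant 3 against C2.

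Recurrence of the members across lists was then compared with that of listed genes in general. In all 6 lists were 3 members (15%), against 426 of the 2600 listed genes (16.4%, or 1.55% of all genes). A further 2 members (10%) were in 5 lists, against 5.77% of listed genes, which brought the members in 5 or 6 lists to 5 (2.1% of all genes). The lower end was fuller. In 2 lists were 7 members (35%), against 22.2% of listed genes, and in a single list were 5 members (25%), against 31.3%. No member was in exactly 4 lists. The median was 2 lists for the members and 2 for all listed genes, with means of 2.8 and 2.86. Recurrence of the members thus followed that of listed genes as a whole.

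**Figure D2:**
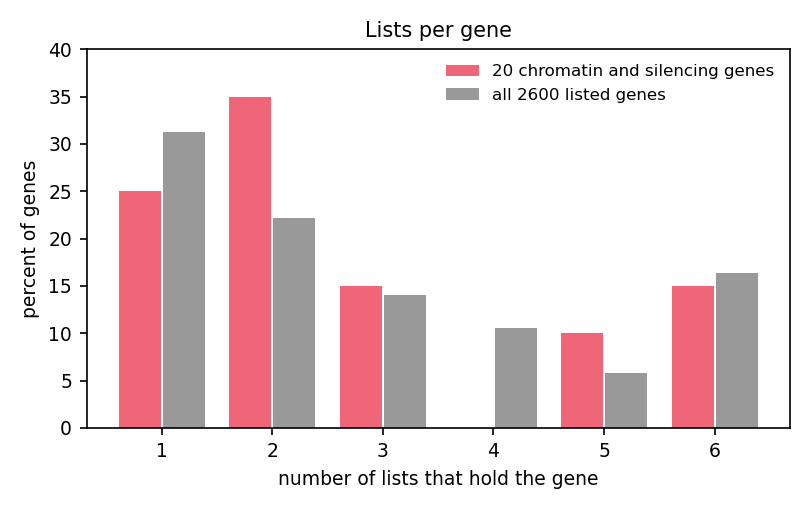
Percent of genes (vertical axis) by the number of lists that hold them (horizontal axis), for the 20 chromatin and silencing genes and for all 2600 listed genes. Both groups have their lowest shares at 4 and 5 lists and similar shares at 6 lists (15% against 16.4%).

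Members were divided among plants and controls as follows. Memory plant 1 was listed against either control for 14 members (7.01% of all genes), plant 2 for 11 (6.03%) and plant 3 for 13 (5.53%). For all 3 memory plants 6 members were listed (30%), against 37.2% of listed genes and 3.53% of all genes. For a single plant 8 members were listed (40%), against 41.3% of listed genes and 3.91% of all genes. Within 1 control, 4 members were listed for all 3 plants against C2 (20%, against 30.7% of listed genes and 2.91% of all genes). They were *HDA9*, *HTA7*, AT2G22720 and AT5G59690. Against C3 there were 5 (25%, against 22.2% of listed genes and 2.11% of all genes), where *HTA9* and *AGO9* took the place of AT5G59690. In lists against C2 only were 8 members (40%, against 31.2% of listed genes and 2.95% of all genes). In lists against C3 only were 2 members (10%, against 19.1% of listed genes and 1.81% of all genes). At least 1 memory plant was listed against both controls for 10 members (50%, against 48.3% of listed genes and 4.57% of all genes). Within each memory plant the list against C2 is the longer one, and with 1 library behind each control this division was not tested.

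Histone genes and histone-binding proteins were the role with most members, 8, and so with most listings, 28. Their median was 3 lists, against 2 for all listed genes. Among them were 6 histone genes. *HTA7* (AT5G27670, TAIR10.1 chromosome 5, 9792509 to 9793560, minus strand), which encodes an H2A.W variant found in heterochromatin, was in all 6 lists. It is a short gene of 1052 bp with 2 exons, set tightly between *DEG14*, 130 bp downstream, and the helicase gene *RECQSIM*, 184 bp upstream. Both neighbours were in 0 lists. No 31-mer of *HTA7* or its 2 kb flanks occurs elsewhere in the genome (0% repeated).

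*HTA9* (AT1G52740, chromosome 1, 19645236 to 19646485, plus strand) encodes H2A.Z, the variant that the SWR1 complex places next to transcription start sites. It was in 5 lists, absent only for plant 3 against C2. Its upstream neighbour AT1G52730, a WD40 repeat gene 24 bp away, was listed for plants 1 and 3 against C3, each time together with *HTA9*. Its repeated share was also 0%. *HTA3* (AT1G54690), one of the H2A.X genes whose product is phosphorylated at DNA breaks, was in 2 lists, for plants 1 and 2 against C2.

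The other histone genes encode H4 and H2B, proteins that are each made from several genes. The H4 gene AT5G59690 (chromosome 5, 24051474 to 24052218, plus strand) was listed for all 3 memory plants against C2 and for 0 against C3. The H4 gene *HIS4* (AT2G28740) was in 1 list, for plant 1 against C2. The H2B gene AT3G53650 (chromosome 3, 19889297 to 19890251, plus strand) had 3 listings, with plant 1 under both controls and plant 2 under C3. Such genes can share reads where their sequence is identical. Of the 31-mers of AT5G59690, 15% were also in the H4 gene AT5G59970, which was in 0 lists. Over AT5G59690 and its flanks 2.52% of 31-mers were repeated, and the part of shared sequence in its listings was not tested. For *HIS4* the highest such share with any gene was 1.02%, and for AT3G53650 it was 1.84%.

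Among the genes that handle histones, AT2G22720 (chromosome 2, 9657339 to 9660803, plus strand) was in all 6 lists. Its product is described as an SPT2 chromatin protein, and in budding yeast Spt2 binds histones during transcription. It had 5764 bp to its upstream protein-coding neighbour, with 1 further annotated gene, a pseudogene, between them, and 54 bp to its downstream neighbour. Both neighbours were in 0 lists. *SUVH6*, a histone methyltransferase gene that starts on the opposite strand within 10 kb, was in 0 lists as well. Repeated 31-mers made up 9.08% of AT2G22720 and its flanks, against a median of 1.3% in other listed genes.

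*FAS1* (AT1G65470), the large subunit of the CAF-1 chaperone that deposits H3 and H4 at replication, was listed for plants 1 and 3 against C3 and in 0 lists against C2. Upstream of it lie 7281 bp without another protein-coding gene, up to *FT*, the florigen gene, which was in 0 lists.

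Among the enzymes that modify histones, *HDA9* (AT3G44680, chromosome 3, 16226519 to 16230009, minus strand) was in all 6 lists. HDA9 is a deacetylase that removes acetyl groups from histone tails. Its nearest neighbours, AT3G44690 at 675 bp upstream and the disease resistance gene AT3G44670 at 4796 bp downstream, were in 0 lists. Repeated sequence was highest here among the members. Of the gene and its flanks, 32.6% of 31-mers occur more than once in the genome, and of the gene body 23.8%. The partial copies *HDA17* (AT3G44490) and *HDA10* (AT3G44660) hold 17.4% and 10.5% of the 31-mers of *HDA9*, and both were in 0 lists. The gene AT3G44665, 311 bp from *HDA10*, was however in 4 lists, while both adjacent genes of *HDA17* were in 0. The part of the sequence shared with these copies in the listing of *HDA9* was not tested.

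The histone methyltransferase genes were each listed for a single memory plant, as were 41.3% of all listed genes. *EFS* (AT1G77300, also called *SDG8*), whose product methylates H3 lysine 36 and is needed for *FLC* expression, was listed for plant 1 against both controls. *SUVH4* (AT5G13960, chromosome 5, 4501362 to 4506250, plus strand), whose product methylates H3 lysine 9 and thereby maintains non-CG DNA methylation with CMT3, was listed for plant 2 against both controls. *SUVR5* (AT2G23740), a zinc finger H3 lysine 9 methyltransferase gene, was in 1 list, for plant 1 against C2, and so could have only 1 plant. *LDL3* (AT4G16310), a demethylase gene of the LSD1 family, was in 1 list, for plant 3 against C2. The remodeller gene *CHR5* (AT2G13370), of the CHD class, was in 2 lists, for plants 2 and 3 against C2. It is the longest member, at 12507 bp, and the only chromatin remodeller besides *CLSY1*.

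RNA silencing genes came to 6 members and 14 listings, with none in all 6 lists. *AGO9* (AT5G21150, chromosome 5, 7192239 to 7198381, plus strand), an argonaute of RNA-directed DNA methylation that acts in ovules, was in 5 lists, the same 5 as *HTA9*. Its neighbours, *emb1379* at 2542 bp upstream and *LARP1a* at 251 bp downstream, were in 0 lists. *AGO7* (AT1G69440), the argonaute that starts the trans-acting small RNA pathway of leaf polarity, was in 3 lists, for plant 1 against both controls and for plant 3 against C2.

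*CLSY1* (AT3G42670, chromosome 3, 14755798 to 14760629, minus strand), an SNF2-type protein that recruits RNA polymerase IV, was listed for plant 1 against both controls. Its next upstream protein-coding gene lies 77762 bp away, across 19 other annotated genes that are mostly pseudogenes. *RDR2* (AT4G11130, chromosome 4, 6780449 to 6784632, plus strand), the polymerase that copies those transcripts, was in 1 list, for plant 3 against C3. *RDR6* (AT3G49500), which acts in silencing after transcription, was in 1 list, for plant 3 against C2. *RDR1* (AT1G14790), known from antiviral defence, was in 2 lists, for plants 2 and 3 against C2. All 3 polymerase genes were listed for plant 3, as were 65% of the members and 58.3% of all listed genes. No 2 of them had the same set of contrasts, which says little with only 1 or 2 listings each.

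**Figure D3:**
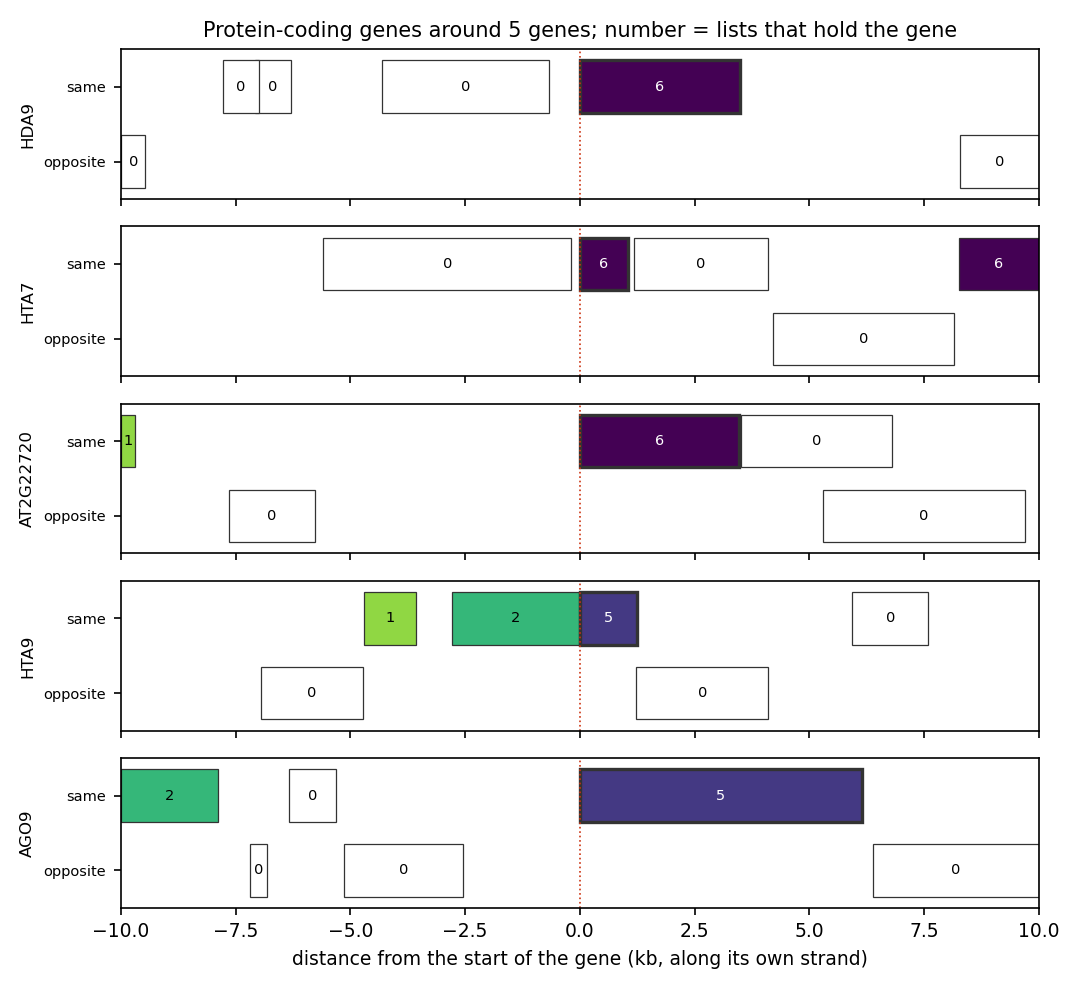
Protein-coding genes within 10 kb of the start of the 5 members in 5 or 6 lists, by distance along the member's own strand (horizontal axis, kb). Boxes are genes on the same or the opposite strand, the thick outline is the member, and the number and colour give the lists that hold each gene. Adjacent genes carry 0 except AT1G52730 next to *HTA9*, with 2.

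Of the neighbours less than 200 bp from a listed gene, from 5.28% to 8.99% were in the same list, against 3.55% to 5.86% of all genes, and the share was the higher one in each of the 6 lists. Close neighbours were thus listed together more often than genes at large, but most such neighbours were not in the list. For the members this was examined gene by gene, since a listing could fall on either side. A listed neighbour within 2 kb was present for 6 members. For 2 of them it was listed with the member, *HTA9* with AT1G52730 in 2 lists and *SUVR5* with AT2G23755, which overlaps it by 612 bp and was itself in all 6 lists.

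For the other 4 members, the neighbour and the member were never in the same list. *SUVH4* was listed for plant 2 against both controls, and AT5G13970, which overlaps it by 60 bp on the opposite strand, for plant 3 against both controls and plant 1 against C2. Either gene of this pair was in 5 of the 6 lists. *RDR1* was listed for plants 2 and 3 against C2, and AT1G14800, 1301 bp upstream, for plant 1 against both controls and plant 2 against C3. Either of them was likewise in 5 of the 6 lists. *RDR2* and AT4G11120, 205 bp upstream, came to 3 lists together, with *RDR2* for plant 3 and AT4G11120 for plant 2 against both controls. *RDR6* and the F-box gene AT3G49510, 217 bp upstream, also came to 3 lists together. These 4 pairs are those with a listed neighbour and no shared list, so a higher count for the pair than for the member follows from how they were picked.

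Over all members, 30% had a listed neighbour within 2 kb, against 22.4% of other listed genes and 11% of genes in no list. Another protein-coding gene overlapped 7 members, each on the opposite strand. The members were long genes, at a median of 4247 bp, where other listed genes had 2246.5 bp and genes in no list 2061.5 bp. The 154 pathway genes in no list, from a chosen list of well-known silencing and chromatin genes, had a similar median of 4255 bp. Among genes found by the same words in the RefSeq product text, the 26 listed had a median of 3770 bp. The 211 of them in no list had 2662 bp. The 6 histone genes among the members were short, with a median of 963.5 bp. The space to both neighbours had a median of 2418 bp in members, 2683 bp in other listed genes and 1791 bp in genes in no list. Repeated 31-mers took a median of 0.808% of the members' windows, 1.3% in other listed genes and 0.378% in genes in no list. At or above 5% were 4 members, *HDA9*, *RDR1* (15.3%), AT2G22720 and *CHR5* (5.41%). Without these 4, the members in all 6 lists fell to 1 of 16, *HTA7*.

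The row order of the deposited lists carries a further label for each listing. Within a chromosome, rows form 3 runs sorted by position, and the first 2 hold genes of 1 strand each while the last holds genes of both strands. What the runs stand for is not stated. Of the 56 listings of the members, 21 (37.5%) were in the mixed run, against 37.2% of all 7448 listings. Of the 15 members in at least 2 lists, 13 (86.7%) were in 1 kind of run throughout, against 82.5% of the 1787 listed genes in at least 2 lists. The other 5 members are in 1 list and can have only 1 kind. In the mixed run alone were 9 members, among them AT2G22720 in 6 of 6 lists, *AGO7*, *RDR1*, *EFS* and *SUVH4*. In the single-strand runs alone were 9 others, among them *HTA7* in 6 of 6 lists, *AGO9* in 5 of 5, *CLSY1* and *FAS1*. Both kinds occurred for *HDA9* (mixed in 1 of 6) and *HTA9* (mixed in 1 of 5).

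Sequence just upstream of the start is shown for the members in all 6 lists and for the H4 gene with a histone promoter motif, since a listing could come from a peak there. It was read from the RefSeq TAIR10.1 genome for up to 250 bases before the annotated start, stopping at the next gene. Capitals mark the letters searched for on both strands, which were the histone octamer CGCGGATC, the hexamer core ACGTCA, the telo-box AAACCCTA and the TATA box letters TATAAA. The stretches are chr3:16230010-16230259 (minus strand) for *HDA9*, chr5:9793561-9793744 (minus strand, 184 bases) for *HTA7*, chr2:9657089-9657338 (plus strand) for AT2G22720 and chr5:24051224-24051473 (plus strand) for AT5G59690.
HDA9: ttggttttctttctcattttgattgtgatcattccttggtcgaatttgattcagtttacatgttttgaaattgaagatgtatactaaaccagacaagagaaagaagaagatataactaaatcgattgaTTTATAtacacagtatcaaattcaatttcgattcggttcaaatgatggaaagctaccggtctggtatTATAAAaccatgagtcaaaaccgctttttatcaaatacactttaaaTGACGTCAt
HTA7: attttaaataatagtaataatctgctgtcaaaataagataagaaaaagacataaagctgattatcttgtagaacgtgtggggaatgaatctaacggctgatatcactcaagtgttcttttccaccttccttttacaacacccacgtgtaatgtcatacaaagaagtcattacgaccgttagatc
AT2G22720: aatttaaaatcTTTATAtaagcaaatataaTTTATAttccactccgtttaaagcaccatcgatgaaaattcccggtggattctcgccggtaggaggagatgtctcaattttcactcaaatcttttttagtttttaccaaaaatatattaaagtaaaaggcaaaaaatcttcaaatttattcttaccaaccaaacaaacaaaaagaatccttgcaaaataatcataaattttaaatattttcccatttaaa
AT5G59690: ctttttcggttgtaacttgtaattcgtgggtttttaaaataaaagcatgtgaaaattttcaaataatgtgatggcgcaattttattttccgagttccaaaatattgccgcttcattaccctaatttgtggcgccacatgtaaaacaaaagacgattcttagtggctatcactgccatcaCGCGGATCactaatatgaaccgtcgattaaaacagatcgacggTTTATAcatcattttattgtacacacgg

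In the stretch of *HDA9*, overlapping matches on both strands join the hexamer core into a palindrome with 1 base between it and the annotated start. Over windows of 300 bases, 250 before and 50 after the start, 15% of the members held the hexamer core (3 of 20, *HDA9*, *RDR1* and AT3G53650), against 9.19% of all 27443 promoters read. The octamer was in 1 member, AT5G59690, 71 bases before its start, against 0.146% of all promoters and 17% of the 53 annotated histone genes. Of the 6 histone genes among the members, the other 5 did not hold these letters in the window. The telo-box was in 1 member, *HTA3*, against 6.22% of all promoters, and the TATA box letters in 14 (70%), against 52.1%. *HTA7* held none of the 4 motifs in the stretch shown. A match is a run of letters and not a measured site.

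To see the members beside the genes of their class that were not listed, the same words were applied to the RefSeq product text of all genes. This found 237 genes, of which 26 were in at least 1 list, or 11% against 9.47% of all genes, and 4 in all 6 lists, or 1.69% against 1.55%. Shares by list ran from 3.38% to 7.59%, close to the share of all genes in each list. The class as a whole was therefore listed at about the rate of all protein-coding genes. The product text missed 1 member, *LDL3*, and added 7 genes that the deposited descriptions do not name as such. Among these were *MGH3*, a histone H3 gene of male gametes, in all 6 lists and *ETL1*, an SNF2 helicase gene, in 5. Of the rest, AT2G25625, AT3G48710, AT4G32295 and AT5G40600 were in 2 lists each and AT3G20010 was in 1.

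**Figure D4:**
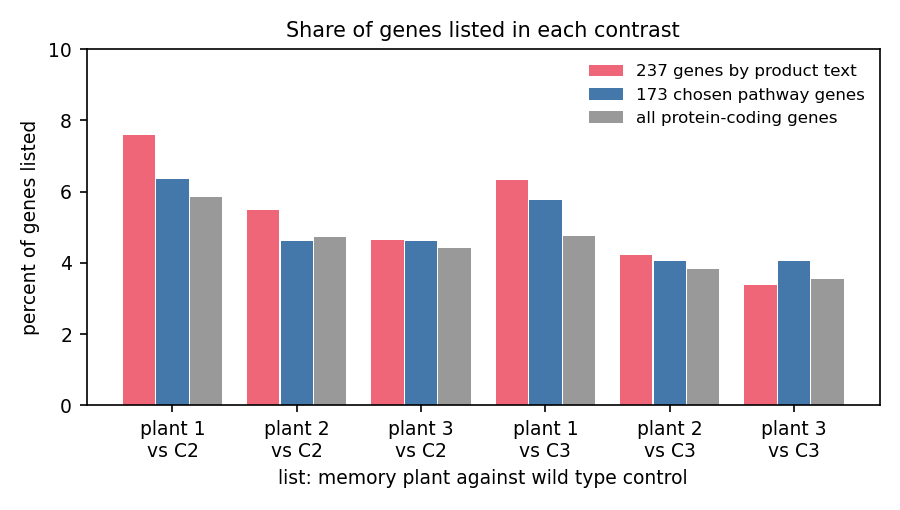
Percent of genes listed (vertical axis) in each of the 6 contrasts, for 237 genes found by product text, for 173 chosen pathway genes and for all protein-coding genes. The first group is the highest in 5 contrasts and the lowest for plant 3 against C3 (3.38% against 3.55% of all genes).

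A second denominator was a list of 173 genes with well-known roles in silencing and chromatin, chosen with earlier results of these data known. In at least 1 list were 19 of them (11%), and 3 in all 6 (1.73%), *HDA9*, *HTA7* and *JMJ13* (AT5G46910), a jumonji histone demethylase gene. Of the listed genes 14 were members and 5 were not. The 5 were *JMJ13*, *JMJ30* in 1 list, *NRPD1*, the large subunit of RNA polymerase IV, in 1 list, *DMS3* in 2 lists and *VIM3* in 1 list.

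By role, RNA-directed DNA methylation had 5 of 27 genes listed (18.5%), *NRPD1*, *RDR2*, *CLSY1*, *AGO9* and *DMS3*. Silencing after transcription had 3 of 19 (15.8%), *AGO7*, *RDR1* and *RDR6*, and the histone demethylases had 3 of 14 (21.4%). The histones had 3 of 20 (15%), *HTA3*, *HTA7* and *HTA9*, 1 for each of the variants H2A.X, H2A.W and H2A.Z, while 0 of the 8 H3 genes and 0 of the 3 H1 genes chosen were listed. The chosen H3 genes do not include *MGH3*, which was in all 6 lists, and the chosen histones do not include the H4 and H2B members. Lower counts were seen elsewhere. The deacetylases had 1 of 18 (5.56%), and Polycomb 0 of 16, histone acetyltransferases 0 of 12 and remodelling ATPases 0 of 9. These counts hold for the chosen genes alone. Listed but not among them were the remodeller genes *CHR5* (2 lists), *ETL1* (5 lists) and AT3G20010 (1 list). The same holds for AT4G32295, annotated as a histone acetyltransferase (2 lists), and AT2G25625, annotated as a histone deacetylase-like protein (2 lists). With 9.47% of all genes listed, a role of this size holds only a few listed genes, so these counts are given without a test.

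**Figure D5:**
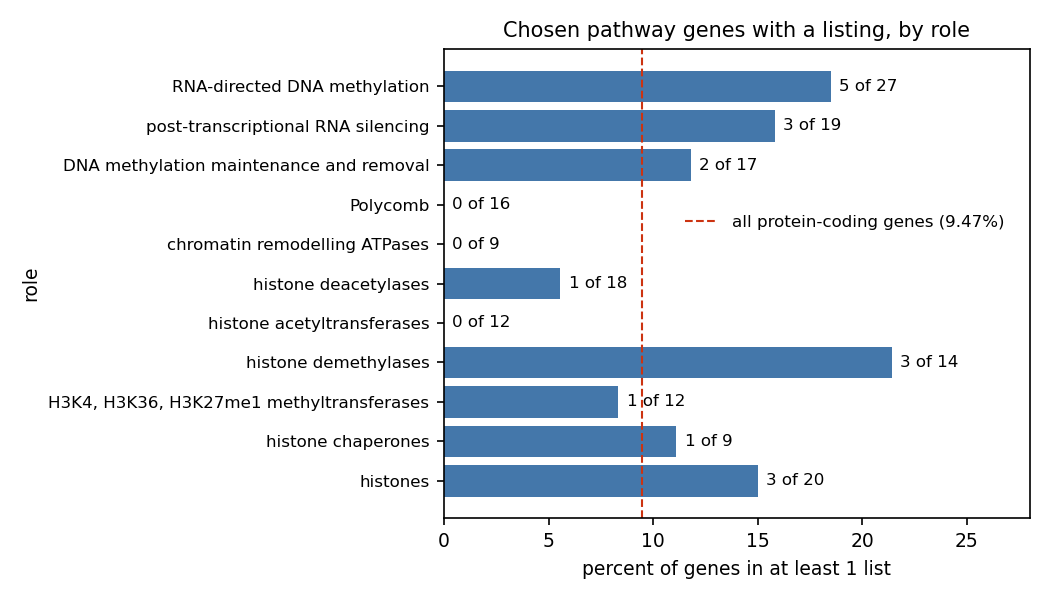
Percent of the 173 chosen pathway genes in at least 1 list (horizontal axis) by role, with the count beside each bar and the share of all protein-coding genes (9.47%) as a dashed line. Bars run from 0% for the chosen Polycomb, remodelling ATPase and acetyltransferase genes to 21.4% for histone demethylases. Listed remodeller, acetyltransferase and deacetylase-like genes outside the chosen list are not drawn.

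Of 6 DNA methyltransferase genes (*MET1*, *CMT1*, *CMT2*, *CMT3*, *DRM1* and *DRM2*) and 4 glycosylase genes that remove it (*ROS1*, *DME*, *DML2* and *DML3*), 0 were in any list, and so were 0 of 4 dicer genes. With 9.47% of all genes listed, 0 among so few genes is near the background. Of 10 argonaute genes 2 were listed, and of 6 RNA-dependent RNA polymerase genes 3. A listed neighbour within 2 kb was present for 25 of the 154 unlisted pathway genes (16.2%), against 11% of all genes in no list, among them *DRM2*, 28 bp from AT5G14610 in 2 lists, and *ROS1*, 97 bp from AT2G36480 in 3 lists. For the chosen Polycomb genes and the chosen histones the count was 0, and the difference from these shares was not tested.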

How the data were processed

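FAIRE libraries came from 5 crosslinked rosettes (3 of the memory line, 2 of wild type), and the deposited values were 6 gene lists, a presence or absence per gene with no count or signal. Per the labels, the authors named Trim Galore 0.4.1, cutadapt 1.9.1, Bowtie2 and the TAIR10 build, each list pairs 1 memory plant with 1 control code and the wild type libraries were the controls. Peak caller, threshold and depth are not given in the sources used here.

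All identifiers matched the 27444 nuclear protein-coding genes of RefSeq TAIR10.1 (0 unmatched), from which coordinates, neighbours, 31-mers counted on either strand over the whole genome and promoters were computed (Python 3.11.15, pandas 2.3.3, numpy 2.4.6, matplotlib 3.10.9), with functions tested on simulated data. Genes counted as neighbours were the adjacent protein-coding ones. Of the 173 pathway loci, 151 carry the symbol used here in the annotation, and the others were taken by identifier. All members are named, with positions for those in 5 or 6 lists, *RDR2*, *CLSY1*, *SUVH4* and others where needed. Outside the members, pathway genes and genes found by product text were named when listed. The unlisted genes named (DNA methyltransferases, glycosylases, *SUVH6*, *FT* and paralogs or neighbours of members) were chosen after their values were seen. The members and lists were chosen with earlier results of these data known. No test was made, because each list contrasts 1 library with 1 library. Alternatives left out memory plants, controls or groups of members, or changed the words. Upstream sequence of other members is not reported here.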

Additional observations from a re-analysis of the deposited data

How the results depend on the processing

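Over 41 alternatives of 5 counts and shares, 31 stayed within a factor of 1.5 and 10 moved by more. When a memory plant was left out, members in at least 1 list numbered 16 to 19, members in all remaining lists 3 to 5 and their share 15.8% to 29.4%. The highest came without plant 3, where *HTA9* and *AGO9* joined the 3 genes. The 26 genes found by product text numbered 19 to 24, and the 19 pathway genes 15 to 17. With the lists against C3 alone there were 12 members, 5 in all 3 lists (41.7%). Requiring 1 memory plant against both controls left 10 members. Without a listed adjacent gene within 4 kb there were 13 members, 3 of them in all 6 lists (23.1%), and with repeated 31-mers under 5% there were 16, 1 of them in all 6 (6.25%). These last alternatives were chosen after seeing the data. Each left out lists or members by construction, which is the cause of the lower totals. No paired analysis was possible because a list compares single libraries, and per-library values were not analysed here. With depth unknown, a gene missing from a list may only have fallen short of the peak caller's threshold.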
